A study of Mus musculus with 6 samples.

Results

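The 10 genes described here are Bhlhe40 and 9 other genes of the circadian clock, the transcriptional oscillator that most mouse cells carry. They were chosen by name: Bhlhe40, Bhlhe41, Per1, Per2, Cry1, Cry2, Nr1d1, Nr1d2, Arntl and Dbp, among 20283 genes that the array named. They were read by 12 probes of 39429, with 2 probes each for Bhlhe41 and Dbp. Transcript levels were measured in macrophages grown from the bone marrow of C57BL/6 mice and labelled as polarized M2, the alternatively activated state. Cells of the first group were kept for 6 h in complete DMEM and are called medium here. Cells of the second group had the same 6 h with WGP, whole glucan particles, which are yeast cell wall particles rich in beta-glucan. Both groups carried the M2 label and no genetic change is named for either. The labels used here give neither the polarizing agent nor the time of day, and they do not say whether replicates came from separate animals or cultures. The p-values therefore measure the spread between these arrays, which may be technical.

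RNA labelled with Cy3 was hybridised to 1-colour Agilent arrays. A level is the log2 of a probe's processed signal minus the log2 of its array's 75th percentile, so 0 lies at that percentile, and a change is the WGP level minus the medium level. Levels of different probes cannot be set against each other. Each group had n = 2 arrays, because the replicate 3 files differed from replicate 1 in median signal at 0 of 44397 spots. Replicate numbers 1 and 2 were each a slide, and every medium array sat at position 1 of its slide and every WGP array at position 3, so slide position and treatment cannot be told apart. The signal at the 75th percentile ranged from 56.1 to 85.8, lower with WGP (59.2 and 56.1) than without, and at most 50.7% of an array's probes stood well above background. Of 10948 genes tested with limma at an adjusted p of 0.05, 4440 (40.6%) were called, 2537 higher (23.2%) and 1903 lower (17.4%) with WGP. With arrays scaled to their median instead, 3193 were higher and 1198 lower. Of the 10 macrophage markers listed, 9 had a probe, and all 9 were well above background on every array, with summed linear levels, in units of the array's 75th percentile, of 1940 and 1924 in medium and 2422 and 2120 with WGP. That sum is mostly Csf1r, which was not called (adjusted p = 0.0589 by limma). Of the 9, Cd14 rose and Mertk (−1.89), Fcgr1 (−1.19), Mrc1 (−0.64) and Lyz2 (−0.47) fell, and the median change was −0.37 on the log2 scale. Of 8 markers of alternative activation, listed after the data were seen, 6 were tested, 2 rose and 3 fell. Clec10a was 16.4-fold lower, Cd163 at least 2.44-fold lower and Mrc1 1.56-fold lower, while Egr2 and Tgm2 were 6.99-fold and 13.1-fold higher, Chil3 was not called, and neither Arg1 nor Retnla was well above background on any array. Among markers of other blood cells, the B-cell genes Cd79a and Cd79b fell, at a summed level under that of the 75th percentile in all arrays (0.962 and 0.774 in medium, 0.305 and 0.318 with WGP). Ms4a1 and Pax5 were not above background. The dendritic-cell list summed to 121 and 80.4 on the medium arrays and to 202 and 215 on the WGP arrays, nearly all of it Siglech. Siglech and Ccr7 were called higher (Ccr7 not with the slide as a block, adjusted p = 0.0553), and Flt3 and Xcr1 were not above background. Of 3 tested erythroid markers Epor was at least 6.88-fold lower and Ermap changed by −0.52, a call lost with the slide as a block (adjusted p = 0.0604), and of 4 tested stromal markers Col3a1 was at least 1.62-fold lower. None of the 4 tested T-cell markers and none of the 4 tested neutrophil markers was called by limma, but with the slide as a block S100a9 (−0.91, adjusted p = 0.019) and Camp (0.63, adjusted p = 0.0284) were. No mast-cell marker was well above background. The part of these cells in the changes below was not tested. In bulk RNA, fewer cells of a type and less RNA per cell cannot be told apart.

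The clock is a feedback loop of transcription. CLOCK and BMAL1 (the product of Arntl) bind E-boxes and switch on Per, Cry, Nr1d, Dbp and Bhlhe genes. PER and CRY proteins then block CLOCK and BMAL1, the REV-ERB receptors encoded by Nr1d1 and Nr1d2 silence Arntl through ROR elements, and BHLHE40 and BHLHE41 (DEC proteins) occupy E-boxes as repressors. DBP acts at the end of the loop, driving output genes through D-boxes, which the repressor NFIL3 also binds. In macrophages the loop is known to time inflammatory gene expression, and BHLHE40 is also known there as a regulator of Il10 and of proliferation. BHLHE40 is besides a target of hypoxia-inducible factor.

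Promoter windows of 4 members that changed are printed to show which of these elements lie next to the genes' starts. Bhlhe40, which also changed, and Per2 had no window in the reference used, so their elements are not described. Each window runs 5′ to 3′ from 250 bases before the start to 50 after it, from RefSeq on GRCm38.p6. Capitals mark matches to the E-box CACGTG and to the hypoxia elements ACGTG and GCGTG, on either strand (a match on the reverse strand reads CACGT or CACGC). The Bhlhe41 window lies at chr6:145865371-145865670 on the minus strand, the first Per1 window at chr11:69098699-69098998 on the plus strand, the Nr1d2 window at chr14:18239057-18239356 on the minus strand and the Dbp window at chr7:45704997-45705296 on the plus strand.
Bhlhe41: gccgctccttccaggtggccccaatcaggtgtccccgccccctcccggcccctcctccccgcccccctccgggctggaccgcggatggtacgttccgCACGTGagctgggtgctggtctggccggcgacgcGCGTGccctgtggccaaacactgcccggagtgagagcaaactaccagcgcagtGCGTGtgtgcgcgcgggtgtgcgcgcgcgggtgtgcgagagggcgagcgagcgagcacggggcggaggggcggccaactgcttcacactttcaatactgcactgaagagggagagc
Per1: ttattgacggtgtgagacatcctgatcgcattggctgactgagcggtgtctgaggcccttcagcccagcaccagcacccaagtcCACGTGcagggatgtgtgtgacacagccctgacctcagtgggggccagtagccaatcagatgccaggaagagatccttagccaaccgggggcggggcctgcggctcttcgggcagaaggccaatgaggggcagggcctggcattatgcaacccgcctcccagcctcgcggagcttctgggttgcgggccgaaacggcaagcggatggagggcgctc
Nr1d2: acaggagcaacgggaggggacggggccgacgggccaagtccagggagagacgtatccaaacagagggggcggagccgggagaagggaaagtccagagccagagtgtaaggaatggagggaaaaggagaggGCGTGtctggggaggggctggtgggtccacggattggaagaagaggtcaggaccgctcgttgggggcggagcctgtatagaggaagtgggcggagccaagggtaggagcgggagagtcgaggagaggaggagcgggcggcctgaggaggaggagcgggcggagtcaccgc
Dbp: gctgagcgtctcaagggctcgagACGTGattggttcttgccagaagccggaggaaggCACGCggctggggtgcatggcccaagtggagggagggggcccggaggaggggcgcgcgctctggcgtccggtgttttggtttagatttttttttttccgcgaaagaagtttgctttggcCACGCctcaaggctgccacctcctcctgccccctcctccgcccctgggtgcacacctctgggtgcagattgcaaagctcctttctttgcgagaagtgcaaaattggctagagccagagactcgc
The Bhlhe41 window held an E-box whose first base lay 153 bases before the start, and the Per1 window had its E-box 166 bases before the start. The Nr1d2 and Dbp windows held no E-box, and their capitals are matches to the hypoxia elements alone. Of the 10 members, 8 had windows (10 windows in all), and 3 of the 8 held an E-box, the other being Cry1, 60 bases before its start. Counted by window, 3 of the members' 10 windows held CACGTG, and among all 32851 windows 7.15% did. The D-box TTANGTAA and the cyclic AMP element TGACGTCA were in the windows of 0 of 8 members, against 2.32% and 1.79% of all windows. The ROR element, present in 0.219% of all windows, was found in a window of Arntl, 28 bases after its start. A hypoxia element, which ACGTG shares with the E-box, was in windows of 7 of 8 members. Counted by window, it was in 8 of the members' 10 windows and in 43.8% of all windows. The members' windows were 56.3% to 72.3% G and C, against 53.8% over all windows, and the part of this in the matches was not tested. These matches describe the letters of the windows and not binding.

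With WGP the E-box repressors Bhlhe40 and Bhlhe41 rose, and Dbp, Nr1d2 and Per1 fell, while Cry2 did not pass the test. Of the 10 members, 6 were bright enough to be tested and 5 of these were called (limma, adjusted p under 0.05), against 40.6% of all tested genes. The members and the lists below were chosen with earlier results of these data known. Their called shares, set beside that of all genes, are therefore descriptions and no evidence of enrichment. Bhlhe40 passed the brightness filter through the WGP arrays alone. The medium and WGP arrays did not overlap for 5 of the 6, against 75.1% of all tested genes, and these 5 changed in the same direction on both slides. None of the 4 arrays read Per2, Cry1, Nr1d1 or Arntl well above background. Without WGP replicate 1 only 3 members were called, Bhlhe40, Bhlhe41 and Dbp, and 4 without any other array.

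**Figure D1:**
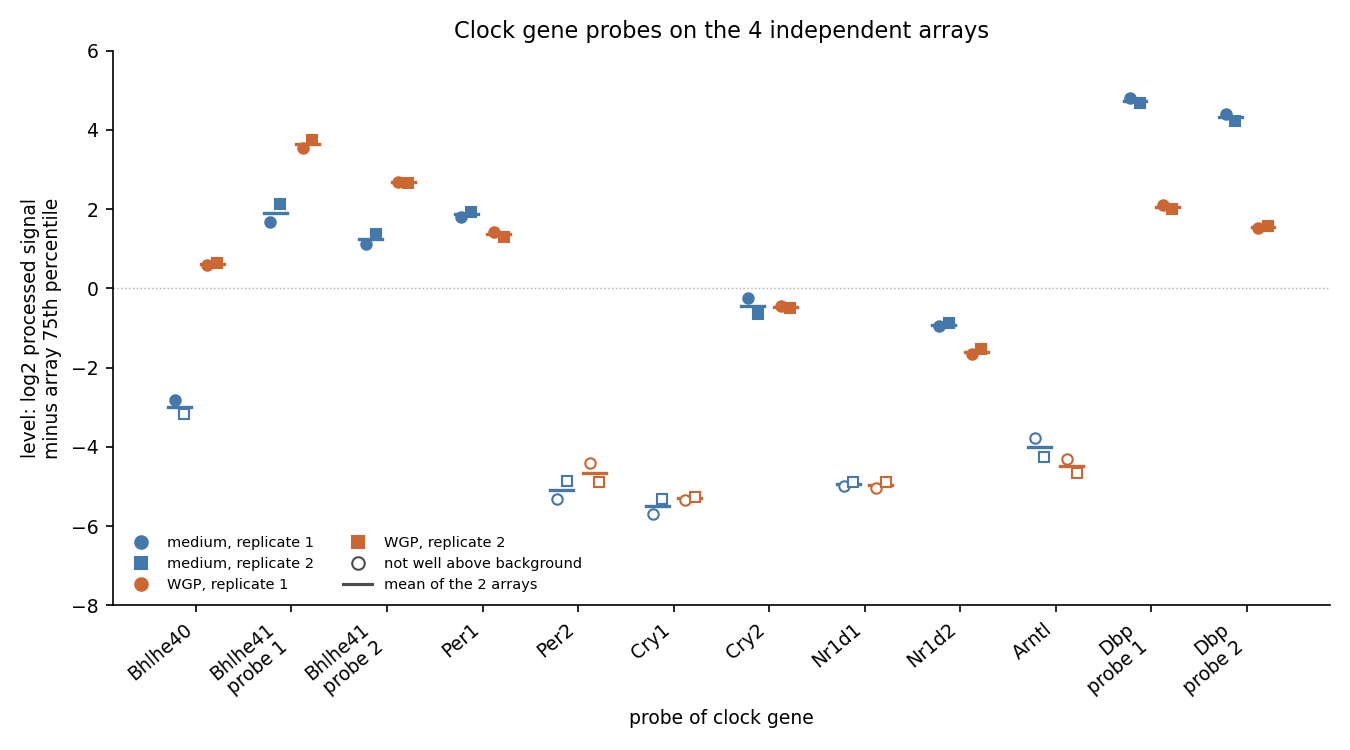
Level of each of the 12 probes of the members (log2 of the processed signal minus that of the array's 75th percentile, y axis) on the 2 medium and 2 WGP arrays, 1 point per array, with bars at the group means and open points where a probe was not well above background. Bhlhe40 went from −2.81 and −3.17 to 0.60 and 0.64, Dbp from 4.81 and 4.67 to 2.11 and 2.00, and the Cry2 arrays overlap.

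Bhlhe40 encodes the DEC1 repressor. Its processed signals were 12.2 and 7.60 in medium and 89.8 and 87.5 with WGP, which are levels of −2.81 and −3.17 against 0.60 and 0.64. Both medium arrays were low and both WGP arrays were high. Only 1 medium array was well above background, since 7.60 lies under 8.34, the lowest signal so rated on its array, so the size of the rise rests on a medium level near background. The means were −2.99 ± 0.25 (SD, n = 2) in medium and 0.62 ± 0.028 (SD, n = 2) with WGP. The rise was 3.62 on the log2 scale (SE 0.15), or 12.3-fold with a 95% confidence interval of 9.15 to 16.4, at an adjusted p of 0.00137 by limma. It was 3.42 on the first slide and 3.82 on the second, and Bhlhe40 ranked 49 from the largest rise among the 10948 genes tested. Background correction with an added offset (normexp) gave a smaller rise, 1.27 on the log2 scale at an adjusted p of 4.43e-05.

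Bhlhe41 encodes DEC2, the close relative of DEC1. Its brighter probe read levels of 1.69 and 2.13 in medium and 3.54 and 3.76 with WGP. The WGP arrays were thus both above the medium arrays. The rise was 1.74 on the log2 scale (SE 0.19), or 3.34-fold with a 95% confidence interval of 2.32 to 4.81, at an adjusted p of 0.00621 by limma. Counting itself, 346 genes, 3.16% of those tested, rose at least as much. The second probe went from 1.13 and 1.37 to 2.69 and 2.67, a rise of 1.43 (SE 0.13) with an adjusted p of 0.00596 over all 18443 probes tested. Of the members' 8 tested probes 7 were called, against 34.2% of all tested probes.

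Among the PER and CRY genes, which encode the repressors that close the loop, Per1 fell and Cry2 gave no call. Per1 had levels of 1.81 and 1.94 in medium and 1.43 and 1.30 with WGP. The 2 WGP arrays lay below both medium arrays by a small margin. The change was −0.51 on the log2 scale (SE 0.11, 95% confidence interval −0.81 to −0.21), which is 1.42-fold lower, at an adjusted p of 0.0286 by limma. The call was lost with the slide as a block (adjusted p = 0.0526), with arrays scaled to their median (adjusted p = 0.117), and when any of the 4 arrays was left out (adjusted p 0.0557 to 0.136).

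Cry2 levels were −0.23 and −0.65 in medium and −0.45 and −0.49 with WGP. The WGP levels lay between the medium levels, and the change had opposite signs on the slides, −0.22 and 0.16. The change was −0.03 on the log2 scale with a 95% confidence interval of −0.50 to 0.43 (adjusted p = 0.893 by limma). Its partner Cry1 had processed signals of 1.67 and 1.72 in medium and 1.46 and 1.47 with WGP, and Per2 had 2.15 and 2.35 against 2.78 and 1.90. Probes well above background began at signals of 7.10 to 8.36 on these arrays, so neither gene had a measured change.

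The REV-ERB receptors are nuclear receptors that bind heme and repress Arntl. Nr1d2, which encodes REV-ERB beta, had levels of −0.94 and −0.88 in medium and −1.66 and −1.54 with WGP. Both WGP arrays were lower than both medium arrays. The change was −0.69 on the log2 scale (SE 0.10, 95% confidence interval −0.97 to −0.41), 1.61-fold lower at an adjusted p of 0.0118 by limma, and it measured −0.72 and −0.66 on the 2 slides. Under normexp it was −0.17 with an adjusted p of 0.166, and without WGP replicate 1 the adjusted p was 0.0672. Nr1d1, which encodes REV-ERB alpha, had processed signals of 2.69 and 2.34 in medium and 1.79 and 1.91 with WGP, none well above background.

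Arntl, the gene of the BMAL1 activator, had processed signals of 6.31 and 3.61 on the medium arrays and 2.98 and 2.24 on the WGP arrays. These signals were below the range at which probes stood well above background, so no change is given. Its partner Clock was dim but measured, at −2.12 and −1.80 in medium and −1.64 and −1.49 with WGP. The WGP arrays were higher, by 0.39 on the log2 scale (SE 0.15), and the difference did not pass the test (adjusted p = 0.108 by limma, 0.0718 with the slide as a block).

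Dbp, the D-box activator at the output of the loop, had the largest fall among the members. Its brighter probe read 4.81 and 4.67 in medium and 2.11 and 2.00 with WGP. The groups lay far apart relative to the spread within each, with means of 4.74 ± 0.098 and 2.05 ± 0.077 (SD, n = 2 each). The change was −2.69 on the log2 scale (SE 0.11), or 6.45-fold lower with a 95% confidence interval of 5.25 to 7.94, at an adjusted p of 0.00129 by limma. It was −2.71 on the first slide and −2.68 on the second, and Dbp ranked 65 from the largest fall among the 10948 genes tested. The second probe fell from 4.41 and 4.23 to 1.53 and 1.57, a change of −2.77 (SE 0.12).

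**Figure D2:**
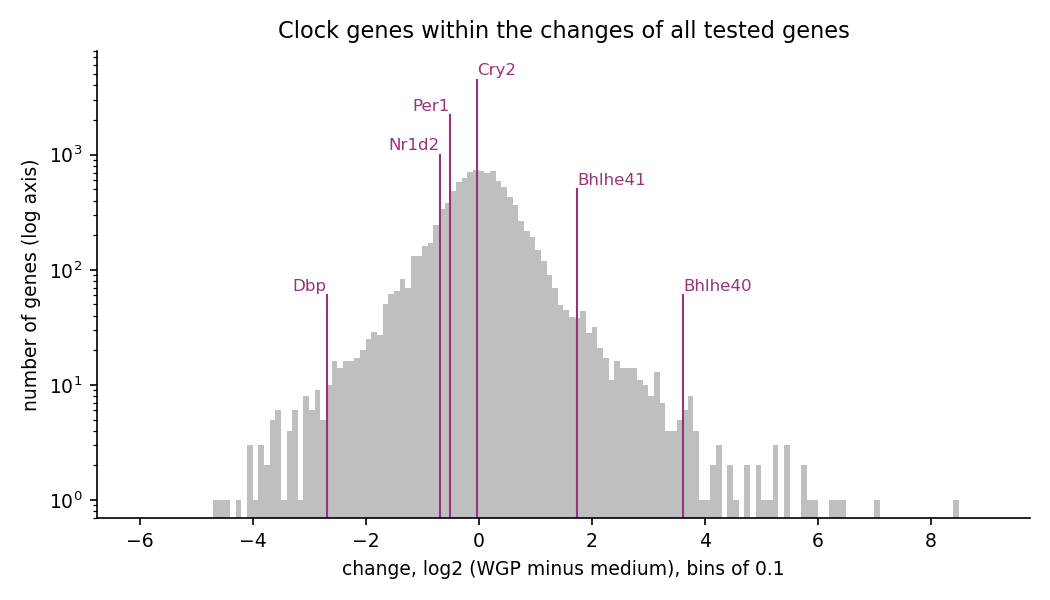
Number of genes (y axis, log scale) by their change (x axis, log2 WGP minus medium, bins of 0.1) for all 10948 tested genes, with vertical lines at the 6 tested members; the heights of the lines carry no value. Bhlhe40 (3.62), Bhlhe41 (1.74) and Dbp (−2.69) lie in the tails, while Cry2 (−0.03), Per1 (−0.51) and Nr1d2 (−0.69) lie near the centre.

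The other clock genes moved in both directions. Of 28 listed, 19 were tested, and 8 rose, 3 fell and 8 did not pass the test (57.9% called, against 40.6% of all tested genes), with a median change of 0.35 on the log2 scale against 0.03 for all genes tested. Of the 9 not tested, 7 were well above background on none of the 4 arrays, among them Rorb, Hlf, Ciart and Arntl2. The 11 calls became 4 without either medium array, 2 without either WGP array and 7 after quantile normalization. Per3, the third PER gene, went from −0.64 and −0.92 to −2.88 and −2.12, 3.29-fold lower (adjusted p = 0.016 by limma). Only 1 of its WGP arrays was well above background, so the size of the fall rests on a level near background. Its call was lost without either medium array (adjusted p 0.0684 and 0.0572), and its change was −0.28 under normexp.

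Tef, a PAR bZIP relative of Dbp, fell from 4.69 and 4.48 to 4.08 and 4.09, 1.42-fold lower (adjusted p = 0.0341 by limma, 0.0508 with the slide as a block). Nfil3, the repressor that competes with Dbp and Tef for D-boxes, rose from 0.64 and 0.15 to 1.29 and 1.16, 1.77-fold higher (adjusted p = 0.036 by limma, 0.0503 after quantile normalization). Rora, the receptor that activates Arntl where REV-ERBs repress it, was 1.35-fold lower with WGP (adjusted p = 0.0361 by limma, 0.0594 with the slide as a block). Among these 3 genes the activators Tef and Rora were lower and the repressor Nfil3 was higher, each by less than 2-fold. With 1 array left out, the log2 changes were −0.61 to −0.39 for Tef, −0.51 to −0.36 for Rora and 0.58 to 1.07 for Nfil3. Rora lost its call whichever array was left out. Tef kept its call only without medium replicate 2, and Nfil3 only without medium replicate 1. With arrays scaled to their median the calls of Tef (adjusted p = 0.104) and Rora (adjusted p = 0.211) were lost.

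Usp2, a deubiquitinase that acts on clock proteins, rose 4.27-fold (adjusted p = 0.0303 by limma). Its medium arrays differed widely, at −2.16 and −0.84, against 0.58 and 0.61 with WGP, and the rise was 1.43 on the log2 scale without medium replicate 1 and 2.75 without medium replicate 2. The call was lost without either WGP array (adjusted p 0.0816 and 0.0822). Noct, the rhythmic nocturnin phosphatase, went from 0.29 and 0.35 to 1.70 and 1.42, 2.37-fold higher (adjusted p = 0.00593 by limma). The remaining rises were small. Prkaa1, a catalytic subunit of AMPK, rose 1.58-fold (adjusted p = 0.011 by limma) and Wdr5 rose 1.41-fold (adjusted p = 0.0198). The casein kinase 2 subunits Csnk2b and Csnk2a1 rose 1.48-fold (adjusted p = 0.0326) and 1.39-fold (adjusted p = 0.049). The ubiquitin ligase subunit Fbxw11 rose 1.34-fold (adjusted p = 0.0364 by limma, 0.0572 with the slide as a block). After quantile normalization Csnk2b (adjusted p = 0.0878), Csnk2a1 (adjusted p = 0.0976) and Fbxw11 (adjusted p = 0.116) lost their calls. With no filter on dim probes each of these small rises lost its call. Wdr5, Csnk2b, Csnk2a1 and Fbxw11 also lost theirs whichever array was left out, and Prkaa1 without either WGP array. The casein kinases 1 that phosphorylate PER proteins gave no call, with changes of 0.04 for Csnk1d and 0.00 for Csnk1e. Timeless changed by −0.60 (adjusted p = 0.169 by limma), which passed with the slide as a block (adjusted p = 0.0398). Under normexp its change had the other sign, 0.079 (adjusted p = 0.478), and only 1 of its WGP arrays was well above background.

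**Figure D3:**
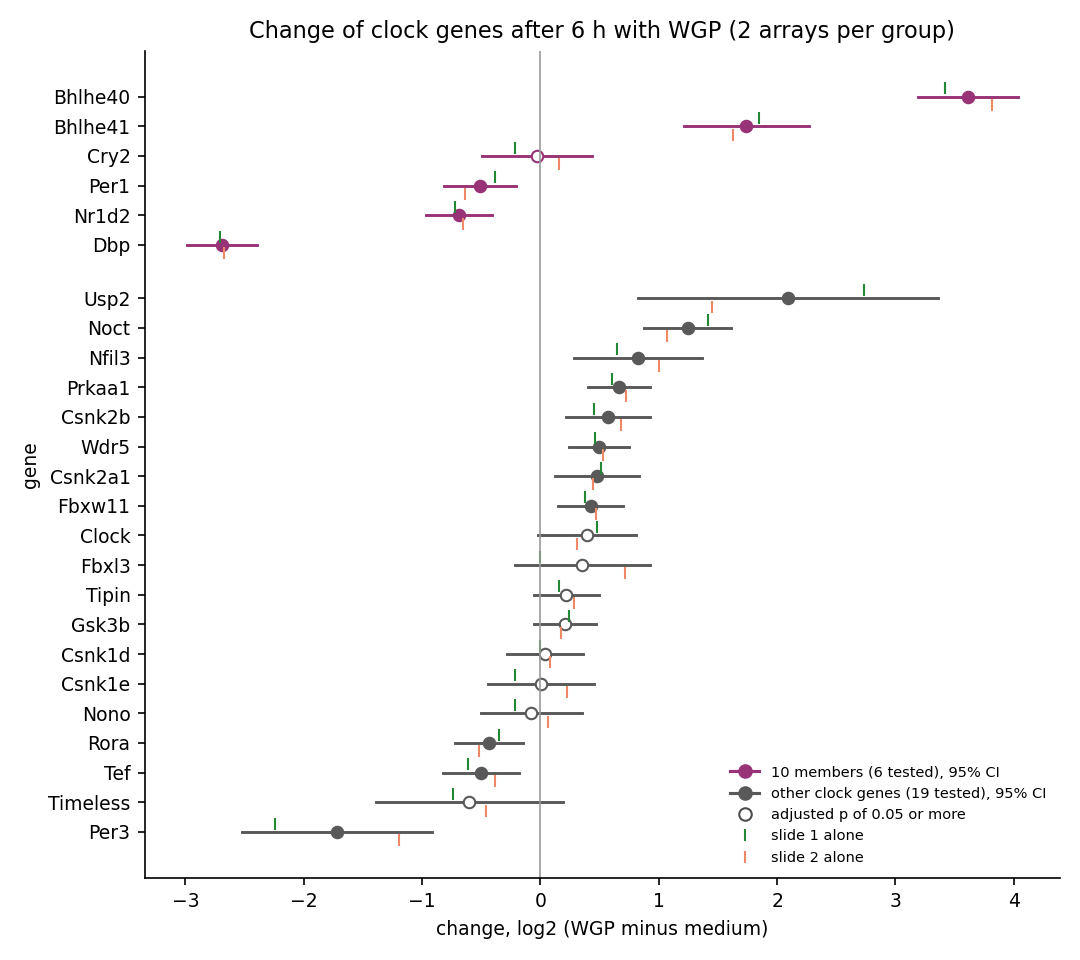
Change with WGP (x axis, log2 WGP minus medium, with 95% confidence intervals from limma) for the 6 tested members and the 19 other tested clock genes; filled points passed the adjusted threshold of 0.05 and ticks mark the change on each slide alone. Bhlhe40 and Usp2 have the largest rises, at 3.62 and 2.09, and Dbp and Per3 the largest falls, at −2.69 and −1.72.

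Of 15 genes listed as known outputs of the clock, 13 were tested, 8 rose and 2 fell (Tef and Tsc22d3; 76.9% called, against 40.6% of all tested genes and 23.2% higher), with a median change of 0.91 on the log2 scale against 0.03 for all genes, and 4 of them (Tef, Nfil3, Usp2 and Noct) are among the clock genes above. Without either WGP array 5 outputs were called, all of them higher. Alas1, the first enzyme of heme synthesis and a known DBP target, went from 5.05 and 5.20 to 7.90 and 8.01, 7.09-fold higher (adjusted p = 0.00129 by limma). It therefore moved in the opposite direction to Dbp. Its probes differed in size, with a rise of 1.91 on the log2 scale for the mean of all kept probes. Nampt, the NAD salvage enzyme, rose 2.99-fold (adjusted p = 0.00327 by limma), and Por, the cytochrome P450 reductase, rose 2.80-fold (adjusted p = 0.00921). Wee1, a mitotic kinase with E-boxes in its promoter, was not well above background in medium and was at least 2.36-fold higher with WGP (adjusted p = 0.00827 by limma). That bound sets the WGP mean against the lowest signal well above background on each medium array.

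Of 11 genes known as targets of REV-ERB repression, 7 were tested, 5 rose and 1 fell (85.7% called, against 40.6% of all tested genes), with a median change of 1.00 on the log2 scale. The 6 calls became 4 without medium replicate 2 or WGP replicate 1, 3 without WGP replicate 2 and 4 after quantile normalization. Cx3cr1, the fractalkine receptor, rose from −1.61 and −2.19 to −0.17 and 0.11, 3.66-fold (adjusted p = 0.0085 by limma). Ccl2, a monocyte chemokine, rose 3.57-fold (adjusted p = 0.00506), and Il1b rose 3.25-fold (adjusted p = 0.0254). Of the medium arrays of Il1b only 1 was well above background, and leaving out either WGP array ended the call (adjusted p of 0.0807 and 0.0608). Normexp gave smaller rises on the log2 scale, 0.70 for Cx3cr1, 0.75 for Ccl2 and 0.42 for Il1b. The inflammasome sensor gene Nlrp3 rose 2.01-fold (adjusted p = 0.046 by limma, 0.0696 with the slide as a block). Il18 went the other way, from 0.00 and −0.24 to −1.51 and −1.29, 2.43-fold lower (adjusted p = 0.00655 by limma). Both interleukins are released through the inflammasome, and their transcripts thus moved in opposite directions.

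Of 14 genes linked to BHLHE40 in macrophages or hypoxia, 12 were tested, 9 rose and 2 fell (91.7% called, against 40.6% of all tested genes), with a median change of 1.19 on the log2 scale. Like the other lists, this one was chosen with earlier results known, so its share is no evidence of enrichment. Maf, a transcription factor that BHLHE40 is known to repress in macrophages, had levels of 4.76 and 4.75 in medium and 2.21 and 2.21 with WGP, 5.84-fold lower (adjusted p = 0.00129 by limma). Il10, another gene under BHLHE40 repression in T cells and macrophages, was 1.78-fold higher with WGP, at −2.66 and −2.60 in medium and −1.73 and −1.87 with WGP (adjusted p = 0.00844). That rise was 0.27 under normexp, and 0.16 with its call lost under normexp with quantile normalization (adjusted p = 0.116). The proliferation marker Mki67 rose by 2.00 on the log2 scale (adjusted p = 0.00156), or by 1.26 under normexp.

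Slc2a1, the glucose transporter GLUT1, rose from 0.33 and 0.49 to 3.60 and 3.51, 8.83-fold (adjusted p = 0.00129 by limma). Hif1a, whose product induces BHLHE40 in hypoxia, rose 4.36-fold (adjusted p = 0.00152; 0.77 on the log2 scale under normexp), and Cebpb rose 6.35-fold (adjusted p = 0.00137). The lipid regulator Pparg was 1.73-fold lower (adjusted p = 0.0128). None of the 4 arrays read Csf2 or Ifng well above background.

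Of 11 corepressors and coactivators of the loop listed, 10 were tested and 2 rose, Sirt1 by 1.65-fold (adjusted p = 0.0145 by limma) and Hdac1 by 1.37-fold (adjusted p = 0.0437, 0.0521 with the slide as a block), with a median change of 0.04 on the log2 scale. Hdac1 lost its call when any of the arrays was left out, and Sirt1 lost it without medium replicate 2 or without WGP replicate 1 (adjusted p of 0.0598 and 0.0705). The 20% called stands beside 40.6% of all tested genes. Ncor1, the corepressor of REV-ERB, changed by −0.41 (adjusted p = 0.133). Kat2b changed by −1.50 (adjusted p = 0.0579, or 0.0385 with the slide as a block), with 1 WGP array not well above background. Under normexp the Kat2b change was −0.065 (adjusted p = 0.629).

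The genes whose pattern over the 4 arrays was most like that of Bhlhe40 were Me1, Tgm2, Htr2a, Sdc1 and A530064D06Rik, with root mean square differences of 0.0624 to 0.109 between gene-centred levels. Me1, malic enzyme, went from −2.49 and −2.69 to 1.08 and 1.08. Tgm2, transglutaminase 2, went from 1.89 and 1.68 to 5.48 and 5.52, and Sdc1, syndecan 1, from −2.04 and −2.43 to 1.54 and 1.48. Htr2a was not well above background in medium, and Me1 and A530064D06Rik were so on only 1 medium array each. The likeness of these genes to Bhlhe40 thus rests on medium levels near background. The genes most like Dbp were Ehd4, Wwp1, Selenbp1, Samd4 and Smagp, with differences of 0.0704 to 0.0882. Samd4 was not well above background with WGP and was at least 1.57-fold lower there, so its likeness rests on levels at background. Selenbp1, a selenium-binding protein, went from 2.99 and 2.86 to 0.24 and 0.32, and Wwp1, a ubiquitin ligase, from 4.20 and 4.22 to 1.67 and 1.57. With 2 arrays a group this likeness is mainly a like change between the groups.

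**Figure D4:**
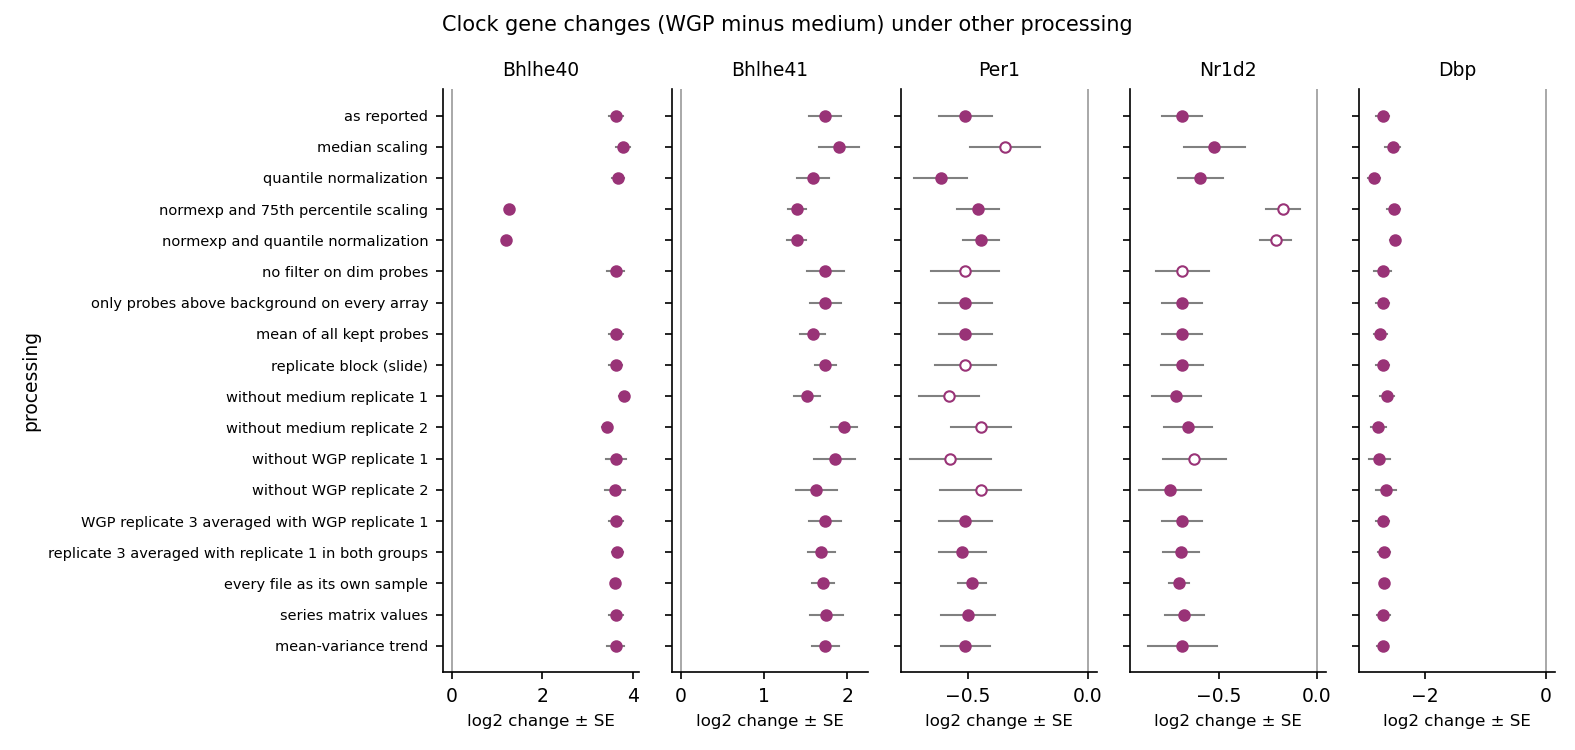
Change of the 5 called members (x axis, log2 WGP minus medium, with bars of 1 SE) under each way of processing the arrays (y axis), 1 panel per gene with its own x axis; filled points passed the adjusted threshold of 0.05. None of the 5 changed sign under these settings, Bhlhe40 was lowest at 1.20, and Per1 and Nr1d2 lost their call under several settings.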

How the data were processed

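RNA of medium and WGP macrophages was hybridised to 1-colour Agilent arrays, and the submitters' processing notes name Agilent Feature Extraction 10.7.3 as the reader. Per the file headers, the deposited intensity (processed signal) is background-subtracted and not normalized between arrays, and the flags for background, outlier and control spots are the authors' own. A log2 table deposited by the authors, with an unknown baseline per probe, correlated at 0.9999 with the scanner values over 39394 probes after centring (largest difference 0.0107), with column medians of −0.0146, 0.164 and 0.102 for medium and 0.0997, 0.13 and 0.1 for WGP. It served as an alternative.

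Each array lost its 1377 control spots and 118 to 183 outlier spots, and had 0 saturated spots. Of the probes, 26761 (67.87%) were named through their RefSeq accession in a table of GRCm38.p6. A probe was kept where both arrays of a group had at least 0.5 of its spots well above background, and the brightest kept probe stood for its gene. The number of arrays limits precision. Medium replicate 3 equalled the mean of medium replicates 1 and 2 within 0.695%, and WGP replicate 3 a multiple of WGP replicate 1 within 0.498%. Both were left out, while replicates 1 and 2 differed at 43490 spots in medium and 42356 with WGP.

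WGP was set against medium over all genes with limma 3.58.1 (R 4.3.3, with 2 residual and 2.19 prior degrees of freedom), with Benjamini-Hochberg adjustment at 0.05. Every adjusted p for a gene comes from limma. The script was tested on simulated data. The slide was a pairing per the file headers, and deviations of same-slide arrays from group means correlated at 0.14 over 2 pairs. Promoter matches are exact, on both strands. The members and lists were chosen with earlier results of these data known. All members were named, and of each other list the called genes with the largest changes (at most 6), every called gene of the other clock genes, and the 5 genes most like Bhlhe40 and the 5 most like Dbp by root mean square difference. Some genes of the lists are counted but not reported here by name. Alternatives covered scaling, background, the filter, probe choice, the slide as a block, leaving out arrays, replicate 3 and the deposited table. Normexp used the median spot and background signals with an offset of 50. The lists of glucocorticoid-induced genes and of alternative activation were chosen after the data were seen.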

Additional observations from a re-analysis of the deposited data

How the results depend on the processing

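Over 16 alternatives for Bhlhe40 and 17 each for Bhlhe41 and Dbp, direction and call were kept in all, with changes of at least 1.20, of 1.39 to 1.96 and −2.84 to −2.49 on the log2 scale. Per1 lost its call in 7 of 17 and Nr1d2 in 4 of 17, with no reversal. Counts of called genes moved as follows, against 4440 genes and 5 members. With no filter on dim probes 1532 genes of 20274, 3 members and 4 of their probes were called, with 2 other clock genes, 5 clock outputs, 3 REV-ERB targets, 6 BHLHE40-linked genes and 0 corepressors or coactivators (limma, 3 at an unadjusted p of 0.05). With every file as its own sample, which counts repeated signals as replicates, 7453 genes and 8 corepressors or coactivators were called. Quantile normalization gave 7 other clock genes and 1 corepressor or coactivator, and normexp with either scaling gave 1 of the latter. Leaving out 1 array gave 2253 to 3283 genes, 3 to 4 members, 5 member probes, 2 to 4 other clock genes, 5 to 10 outputs, 3 to 5 REV-ERB targets, 8 to 11 BHLHE40-linked genes and 0 to 2 corepressors or coactivators (the 0 without medium replicate 2, with 1 at an unadjusted p of 0.05). The lone array is then assumed to vary like the other group. The causes were not tested, beyond the numbers of genes and arrays. With the slide as a block 4087 genes and 4 members were called, Per1 being lost. Scaling to the median raised the share of higher calls from 57.1% (2537 higher, 1903 lower) to 72.7% (3193 higher, 1198 lower) and the median change of all genes by 0.16. For Per2, Cry1, Nr1d1 and Arntl the signal over background limits what can be said. The Cdkn1a probes differed, with a change of 0.91 for the brightest and 0.11 for the mean of all kept probes.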

Other observations

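Per1 and Tsc22d3 are also known as targets of the glucocorticoid receptor, and genes induced by glucocorticoids were listed after the data were seen. All 12 were tested, 4 rose and 4 fell (66.7% called, against 40.6% of all tested genes), with a median change of 0.43 on the log2 scale against 0.03 for all genes. With the slide as a block in limma, the falls of Per1 (adjusted p = 0.0526) and Cebpd (adjusted p = 0.0634) were not called. Klf9 (adjusted p = 0.0438) and Ddit4 (adjusted p = 0.0245) were then called higher. Zbtb16, a zinc finger repressor, went from 0.89 and 1.11 in medium to −2.68 and −2.38 with WGP, 11.5-fold lower (adjusted p = 0.00143 by limma). Sgk1, a serine/threonine kinase, went from 0.12 and 0.31 to 3.42 and 3.31, 8.86-fold higher (adjusted p = 0.00129 by limma). Tsc22d3, which encodes GILZ, was 1.56-fold lower (adjusted p = 0.0267 by limma), and Fkbp5, a cochaperone of the receptor, changed by 0.14 (adjusted p = 0.505). With 1 array left out the Tsc22d3 change was −0.79 to −0.50 on the log2 scale. Its call was lost without medium replicate 1, without either WGP array, and with no filter on dim probes. The list thus held genes that moved strongly in opposite directions.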
